A study of Mus musculus with 6 samples.

Results

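The transcripts examined here encode 8 mitochondrial chaperones and co-chaperones (Hspd1, Hspe1, Hspa9, Trap1, Dnaja3, Grpel1, Grpel2 and Clpb), genes often read as the output of the mitochondrial unfolded protein response. They were chosen by symbol. Each of the 8 symbols was found in exactly 1 of the 51499 loci of the count table, and all 8 loci were among the 13867 with enough counts to be tested. RNA sequencing was carried out on SV40 immortalized mouse embryonic fibroblasts (MEFs), 3 cultures labelled WT (genotype Yme1l fl/fl, floxed but intact alleles) and 3 labelled Yme1l-/-. Both genotypes come from floxed embryos, and according to the study's methods both were picked as clones after transduction with Cre recombinase. How many clones the cultures represent is not stated, so clone and genotype cannot be told apart.

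YME1L is an ATP-dependent protease of the inner mitochondrial membrane. Most mitochondrial proteins are imported unfolded and are folded inside by chaperones. In the matrix, mitochondrial HSP70 (mtHSP70, encoded by Hspa9) holds incoming chains and works with J-proteins, which stimulate its ATPase, and GrpE-type factors, which release its nucleotide. The HSP60 and HSP10 proteins form a closed chamber for folding, TRAP1 is the mitochondrial member of the HSP90 family, and CLPB dissolves aggregates in the intermembrane space. When unfolded proteins accumulate in mitochondria, cells can raise transcripts of such chaperones and of mitochondrial proteases, a response that has been linked in mammals to the transcription factors ATF5, ATF4, CHOP (encoded by Ddit3) and HSF1.

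The WT libraries held 33180867 to 34012520 counted fragments and the Yme1l-/- libraries 34624075 to 49351107. Yme1l1, the targeted gene, was at 188.7 ± 5.16 CPM (counts scaled to a common library size, SD, n = 3) in WT and 39.1 ± 1.34 CPM in Yme1l-/-, lower in all 3 Yme1l-/- libraries. Of 8 fibroblast markers, 7 were tested, of which 1 was higher (Col1a1, log2 fold change 0.43, a call that ended at 0.073 with chromosome medians removed) and 5 were lower in Yme1l-/-, among them Vim (-1.33) and Col3a1 (-2.48, with 9860 fragments in WT replicate 2 and 2858 and 2974 in the others, a call lost when any Yme1l-/- replicate was left out, and -1.63 without WT replicate 2). Their summed level was 10838 to 11400 CPM in WT and 6646 to 7133 CPM in Yme1l-/-. The fibroblast surface marker Thy1 had 4 to 6 fragments per WT library and 0 in Yme1l-/-. Among markers of other cell types, 2 of 6 epithelial genes were tested and both were lower (Epcam, and Krt18 with 1012 to 1086 fragments per WT library and 0 to 3 in Yme1l-/-), and 1 of 7 haematopoietic (Cd68, 1.04, or 0.68 with chromosome medians removed) and 1 of 6 endothelial genes (Kdr, 0.72) were tested and were higher. The Kdr call was lost without WT replicate 3 (0.56) and without Yme1l-/- replicate 2 (0.62). Over all 13867 tested loci, 33.6% were called higher and 34.1% lower, and the marker calls are to be read beside these shares. The part of these marker differences in the chaperone values was not tested, and in bulk RNA a change in cell composition and a change per cell cannot be told apart.

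Hspd1 and Hspe1, which encode HSP60 and HSP10, lie head to head on chromosome 1 (GRCm38, Hspd1 at 55077835 to 55088243 on the minus strand, Hspe1 at 55088132 to 55091307 on the plus strand). By the RefSeq start sites, 55087932 for Hspd1 and 55088148 for Hspe1, 215 bases separate them, 70.2% of which are G or C. A further Hspd1 start at 55088243 lies beyond the Hspe1 start. The stretch between them is of interest because it holds matches to the motifs of stress regulators named above, and pieces of 30 bases are shown from the plus strand, with the motif in capitals. The former, chr1:55088053-55088082, holds 4 alternating TTC and GAA units, the arrangement recognised by heat shock factors. The latter, chr1:55087937-55087966, holds TGCAAT, the core of the motif of CHOP and C/EBP factors.
HSE: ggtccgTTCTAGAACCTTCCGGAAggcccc
CHOP core: acgccggggcccTGCAATctgcatgcggcg

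The heat shock element ends 72 bases upstream of the Hspe1 start and begins 127 bases upstream of the Hspd1 start. On both strands of the RefSeq promoter windows around each start site (GRCm38.p6), 3 motifs were searched. They were a heat shock element of 3 units (GAA, any 2 bases, TTC, any 2 bases and GAA), TGATGNAAT, the element of ATF4 with C/EBP factors, and TGCAAT. Of 32851 windows, 0.603% held the heat shock motif, 0.965% the ATF4 motif and 8.40% the short TGCAAT core. Windows were found for 6 of the 8 genes. They are short, that of Hspe1 running from 55087898 to 55088197 around its start, and sequence outside them was not searched. The window of Hspe1 and that of the nearer Hspd1 start, which overlap, held the heat shock motif and TGCAAT. The letters of none of the 3 motifs occurred in the window of the further Hspd1 start or in those of Trap1, Dnaja3, Grpel1 and Clpb. A match is a description of letters, not of binding.

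Calls were made by edgeR's quasi-likelihood test with an adjusted p under 0.05. Of the 8 chaperone loci, 3 were called higher in Yme1l-/- (Trap1, Grpel1, Clpb) and 3 were not called (Hspd1, Hspe1, Hspa9). The 2 called lower were Grpel2 and the locus that counts Dnaja3 together with Vasn. Of all 13867 loci, 67.7% were called, 33.6% higher and 34.1% lower, so the members' share of 62.5% was near the background. The libraries of the genotypes did not overlap for 5 members, 3 higher and 2 lower in Yme1l-/-, beside 71.9% of all loci, 35.9% higher and 36% lower. Expressed as Yme1l-/- over WT on the log2 scale, the members had a median fold change of 0.0034 and all loci one of -0.0041. With chromosome medians removed, these medians were 0.14 and -0.0003. All 8 members, and 81.9% of all loci, differed by less than 1 on the log2 scale, and the differences of 6 members were smaller than the median absolute log2 fold change of all loci, 0.38. Summed over the 8 loci, fragments of Vasn included, the level was 2490 to 2617 CPM in WT libraries and 2448 to 2576 CPM in Yme1l-/- libraries, ranges that overlapped.

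**Figure D1:**
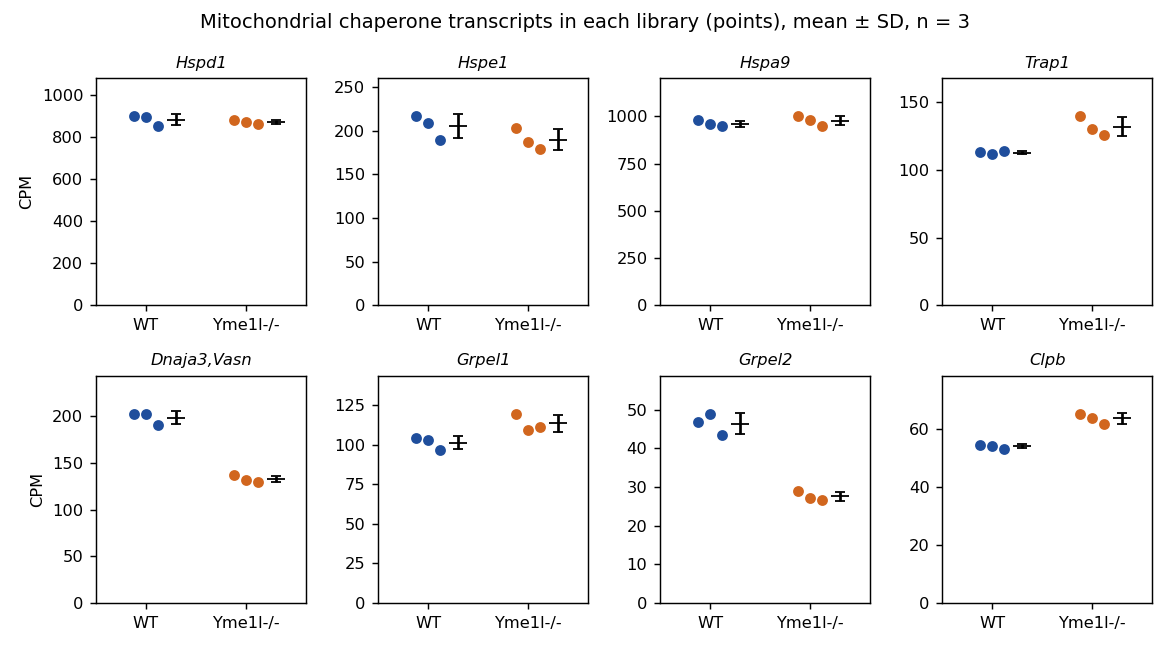
CPM of the 8 chaperone loci (vertical axes, linear from 0) in the 3 WT libraries (blue points) and the 3 Yme1l-/- libraries (orange points), with mean ± SD beside them. The genotypes overlap for Hspd1, Hspe1 and Hspa9, Trap1, Grpel1 and Clpb sit slightly higher in Yme1l-/-, and the Dnaja3,Vasn locus and Grpel2 sit clearly lower.

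Levels can be compared between genes only per length. In the authors' pooled FPKM values (fragment counts scaled for transcript length and library size, 1 value per genotype and so with no error), Hspd1 was highest with 386.7 in WT and 381.7 in Yme1l-/-. Hspe1 was at 339.2 and 313.3 and Hspa9 at 325.5 and 332.2. The other members were far lower, with 75.8 and 52.5 for the merged Dnaja3,Vasn locus, 51.1 and 59.95 for Trap1, 29.2 and 32.7 for Grpel1 and 27.7 and 35.5 for Clpb. Grpel2 was lowest, with 11.6 in WT and 6.91 in Yme1l-/-. Per library, with CPM divided by the exonic length in the GENCODE annotation, WT levels were 352.1 to 370.9 FPKM for Hspd1, 311.5 to 321.5 for Hspa9 and 245.4 to 279.9 for Hspe1. These ranges did not overlap, although Hspe1 and Hspa9 changed places between the methods. On this scale Clpb, whose annotated exons span 6822 bases, was at 7.81 to 8.02 in WT and Grpel2 at 6.62 to 7.46, the last places in the WT order on both scales. Trap1 (48.0 to 49.1) and the Dnaja3,Vasn locus (34.7 to 36.9) also changed places in WT between the methods, so the order of these neighbours depends on the length used.

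The HSP60 transcript Hspd1 was at 898.6, 896.7 and 853.3 CPM in WT replicates 1 to 3 and at 882.2, 872.5 and 863.4 CPM in Yme1l-/- replicates 1 to 3. All 3 Yme1l-/- values lay within the WT range. On the log2 scale the fold change was -0.017 ± 0.047 (SE; 95% interval -0.12 to 0.088; edgeR adjusted p 0.77). Its sign turned under upper-quartile scaling (0.043, edgeR adjusted p 0.438), which also moved the median of all loci from -0.0041 to 0.055. It turned as well, with a call as higher, once chromosome medians were removed (0.14, edgeR adjusted p 0.0252). The Hspd1 values rest on 27860 to 43993 fragments per library.

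Hspe1, the HSP10 transcript, was at 216.6, 208.9 and 189.9 CPM in WT and 202.9, 187.6 and 178.8 CPM in Yme1l-/-. The Yme1l-/- libraries tended to lie lower but overlapped the WT libraries. Hspe1 had a log2 fold change of -0.11 ± 0.06 (SE; 95% interval -0.25 to 0.020) and was not called (edgeR adjusted p 0.12). It was called lower without WT replicate 3, at -0.17 (edgeR adjusted p 0.0307), and without Yme1l-/- replicate 1, at -0.16 (edgeR adjusted p 0.0217). Without Yme1l-/- replicate 3 it was at -0.069, and its sign turned once chromosome medians were removed, at 0.042 (edgeR adjusted p 0.567).

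The chaperonin partners were also compared with each other within each library, where no scaling is needed. For each Hspd1 fragment there were 0.241, 0.233 and 0.223 Hspe1 fragments in WT and 0.230, 0.215 and 0.207 in Yme1l-/-. The ranges overlapped, and the log2 ratio differed by -0.10 between the genotypes, with an exact two-sided permutation p of 0.2, where 0.1 is the smallest p that 3 against 3 can give. The Hspd1 pseudogene Hspd1-ps3, an intronless copy on chromosome 11 (41498737 to 41500458), took 3224 to 5115 fragments per library. This was 11.2% to 11.6% of the Hspd1 count in every library, and 36.9% of the pseudogene's 100-base windows, the read length, occur unchanged in Hspd1 transcripts. Fragments of the gene and its copy therefore may be exchanged. With both loci summed, an alternative chosen after seeing the data, the Hspd1 log2 fold change was -0.016. The other 10 pseudogene loci of the members had 0 fragments, apart from 1 fragment in Hspe1-ps3.

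Hspa9, which encodes mtHSP70, is on chromosome 18 (34937414 to 34954357). It was at 980.4, 957.9 and 949.8 CPM in WT and 1001.4, 983.7 and 950.5 CPM in Yme1l-/-. The genotypes overlapped. Its log2 fold change was 0.024 ± 0.047 (SE; 95% interval -0.081 to 0.13; edgeR adjusted p 0.679). With chromosome medians removed it was called higher, at 0.23 (edgeR adjusted p 0.00134), outside this interval.

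**Figure D2:**
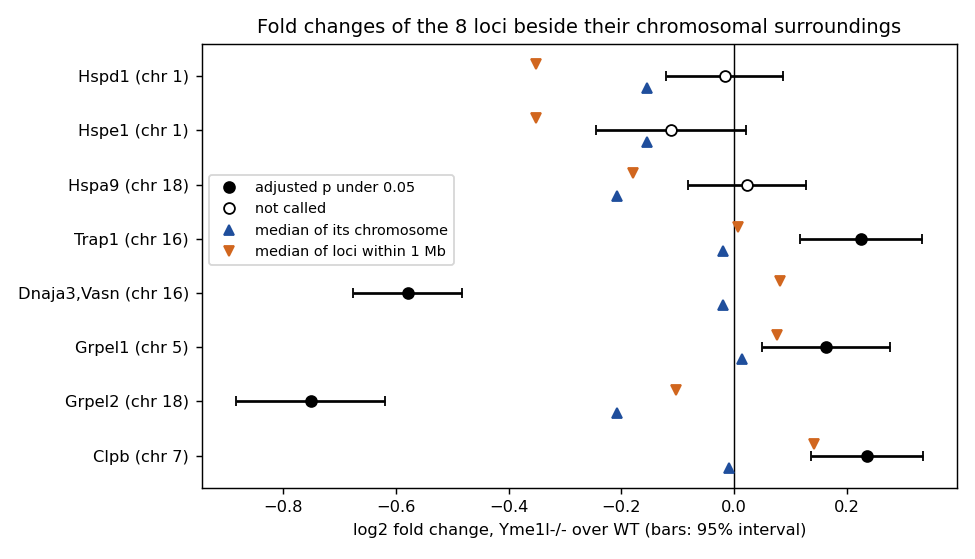
Log2 fold change of each member, Yme1l-/- over WT, with its 95% interval (bars, filled points called, open points not called), beside the median log2 fold change of the tested loci on its chromosome (blue) and within 1 Mb (orange). Hspd1, Hspe1 and Hspa9 lie above the medians around them, from -0.35 to -0.15, and Grpel2 and the Dnaja3,Vasn locus lie far below theirs.

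The nucleotide exchange factors of mtHSP70 are encoded by 2 paralogous genes, and these moved in opposite directions. Grpel1 (chromosome 5, 36464998 to 36474080) rose slightly, from 104.4, 102.8 and 96.5 CPM in WT to 119.4, 109.6 and 111.2 CPM in Yme1l-/-, with no overlap. Grpel1 was 11.96% higher, at 0.16 ± 0.05 on the log2 scale (SE; edgeR adjusted p 0.0151). This call was lost without WT replicate 3, at 0.13 (edgeR adjusted p 0.0648).

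Grpel2 (chromosome 18, 61712424 to 61726325), thought to serve under stress conditions, fell from 46.8, 48.9 and 43.4 CPM in WT to 28.9, 27.2 and 26.6 CPM in Yme1l-/-. Each Yme1l-/- library was well below each WT library. Its level fell by 40.6%, the largest change among the 8 loci, which is -0.75 ± 0.06 on the log2 scale (SE; edgeR adjusted p 7.4e-07). With chromosome medians removed it was at -0.54, beside -0.56 for the Dnaja3,Vasn locus, and so no longer the largest. There were 0.448, 0.475 and 0.449 Grpel2 fragments per Grpel1 fragment in WT and 0.242, 0.249 and 0.239 in Yme1l-/-. The shift of this ratio by -0.91 on the log2 scale separated the genotypes fully, with the smallest exact two-sided permutation p that the design allows, 0.1. Over the 2 ratios tested, the Benjamini-Hochberg adjusted permutation p was 0.2 for each, so neither passed a threshold of 0.05, which this design cannot reach.

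**Figure D3:**
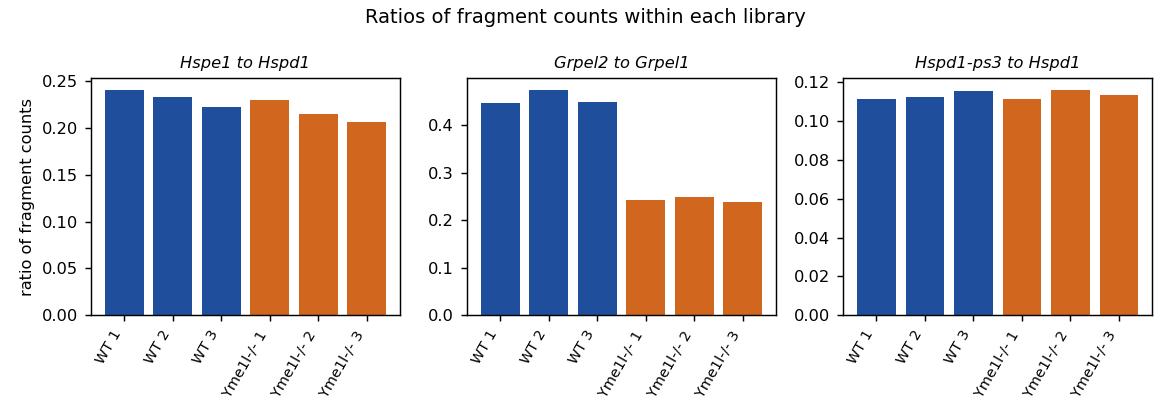
Ratios of fragment counts within each library (bars from 0, WT in blue, Yme1l-/- in orange) for Hspe1 to Hspd1, Grpel2 to Grpel1, and the pseudogene Hspd1-ps3 to Hspd1. Only the Grpel2 to Grpel1 ratio differs between the genotypes without overlap, from 0.457 ± 0.0153 in WT to 0.243 ± 0.00496 in Yme1l-/- (mean ± SD, n = 3).

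Dnaja3 encodes a J-protein partner of mtHSP70, also known as TID1. Its fragments were counted in a locus merged with Vasn, which encodes the cell-surface protein vasorin. On chromosome 16, Dnaja3 spans 4639989 to 4707695 and Vasn 4639941 to 4650802 on the same strand, since 1 annotated Dnaja3 transcript begins within Vasn, while the RefSeq start of Dnaja3 is at 4684070. The locus was at 202.3, 202.1 and 190.1 CPM in WT and 136.5, 131.6 and 129.9 CPM in Yme1l-/-. The genotypes were clearly separated. The level of the locus fell by 33.1%, or -0.58 ± 0.04 in log2 fold change (SE; edgeR adjusted p 4.9e-07). These counts cannot be divided between the genes, so the decrease may belong to Dnaja3, to Vasn or to both. Without this locus, 1 member was called lower.

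Trap1 (chromosome 16, 4039971 to 4077827) lies on the same chromosome as the Dnaja3,Vasn locus and went the other way. It was at 113.1, 111.4 and 113.9 CPM in WT and rose to 139.6, 130.5 and 125.7 CPM in Yme1l-/-. All Yme1l-/- libraries were higher. Trap1 was 16.9% higher, a log2 fold change of 0.23 ± 0.05 (SE; edgeR adjusted p 0.00168).

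Clpb (chromosome 7, 101663633 to 101795506), the gene of the disaggregase, was at 54.7, 54.3 and 53.3 CPM in WT and 65.3, 64.1 and 61.8 CPM in Yme1l-/-. The groups did not overlap and were tight. Clpb was 17.8% higher, or 0.24 ± 0.04 on the log2 scale (SE; edgeR adjusted p 0.00066). The increases of Trap1, Clpb and Grpel1 all lay within the interquartile range of the log2 fold changes of all loci, -0.36 to 0.41.

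Because the cells were cloned, the surroundings of each gene were examined. The median log2 fold change was -0.15 over 794 loci of chromosome 1 and -0.35 over 14 tested loci within 1 Mb of either chaperonin gene, the partner gene counted among them. For chromosome 18 it was -0.21 over 344 loci, with -0.18 over 30 loci near Hspa9 and -0.10 over 20 loci near Grpel2. With the chromosome medians removed, Hspd1 and Hspa9 were called higher and Hspe1 was not called, as given above, and Grpel2 was still called lower at -0.54. The calls were then 5 higher and 2 lower, in a setting in which 62.8% of all loci were called. The values without a shift for Hspd1 and Hspa9 thus depend on whether a gene is compared with the whole transcriptome or with its own chromosome. Chromosomes 5, 7 and 16 had medians from -0.020 to 0.014, and the Grpel1, Clpb, Trap1 and Dnaja3,Vasn calls were the same under both. Within 1 Mb of Clpb, 12 of 28 loci were higher and 2 were lower, with a median of 0.14.

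**Figure D4:**
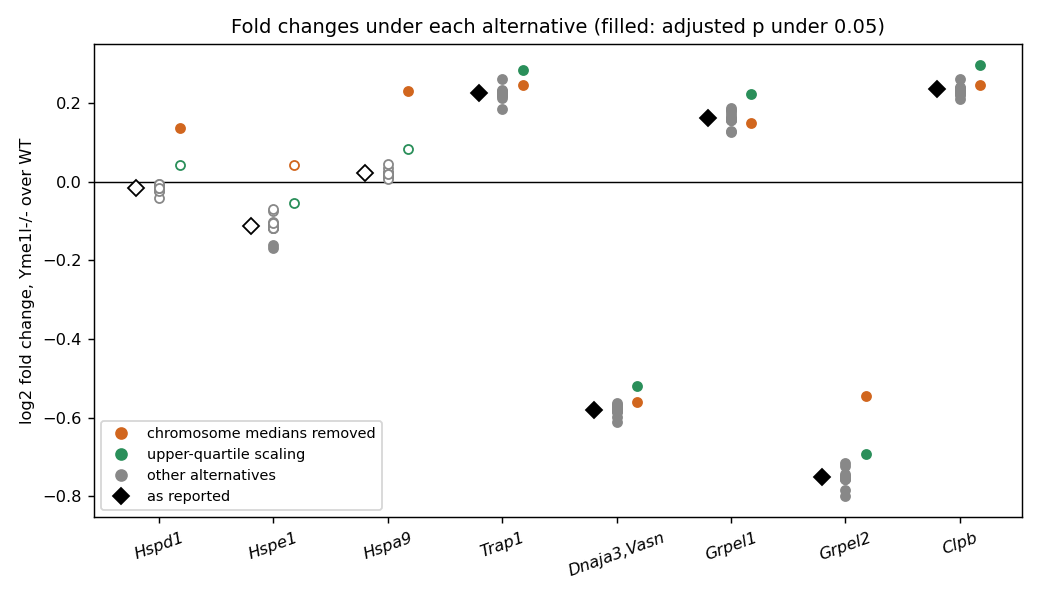
Log2 fold change of each member (vertical axis) as reported (black diamonds) and under each alternative (circles, filled where the adjusted p was under 0.05; the open circle of Grpel1 without WT replicate 3, at 0.13, is hidden by a filled one). Trap1, the Dnaja3,Vasn locus, Grpel2 and Clpb keep their direction and call throughout, whereas Hspd1 and Hspa9 become called once chromosome medians are removed (orange, 0.14 and 0.23).

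The profile of Hspd1 over the 6 libraries was compared with that of the 9090 loci averaging 10 CPM or more. The highest Pearson correlations of log2 CPM were those of Akirin1 (0.987), Fam133b (0.962) and Gm9761 (0.962). None of these 3 loci was called, which a choice by likeness to an uncalled locus favours and which is no separate result. Among the other members the highest was that of Hspe1, 0.871, and the rest lay between -0.21 and 0.44. These are descriptions over 6 libraries that share the same scaling.

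Genes linked to the chaperones were examined by list. The counts of each list are to be read against the background of 33.6% of all loci called higher and 34.1% called lower, and list medians against -0.0041. Of 8 genes listed here as mtHSP70 partners, 4 were higher and 2 were lower (75% called, beside 67.7% of all loci), with a median log2 fold change of 0.21. Whether every listed protein, that of Dnajc11 included, works with mtHSP70 was not examined. Dnajc19, a J-protein of the import motor, rose from 14.4 ± 0.528 to 23.3 ± 2.42 CPM (SD, n = 3), or 0.69 ± 0.08 on the log2 scale (SE; edgeR adjusted p 1.7e-05). Its paralog Dnajc15 fell from 8.77 ± 0.684 to 4.85 ± 0.430 CPM, or -0.85 ± 0.11 on the log2 scale (edgeR adjusted p 3.5e-05). Hscb, the J-protein of iron-sulfur cluster assembly, was higher by 0.47 ± 0.11, and Dnajc11 was lower, at -0.14 ± 0.04 (SE), a call that ended under upper-quartile scaling (-0.084, edgeR adjusted p 0.0972) and with chromosome medians removed (-0.046, edgeR adjusted p 0.364).

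Some mitochondrial quality-control proteases degrade chains that chaperones fail to fold. Of 7 tested genes of the protease list, 4 were higher and 2 were lower (85.7% called, beside 67.7% of all loci), with a median log2 fold change of 0.23. The matrix protease Lonp1 rose from 161.4 ± 3.303 to 229.6 ± 4.603 CPM (SD, n = 3), at 0.51 ± 0.04 (SE, edgeR adjusted p 6.8e-07), and Clpp, the proteolytic subunit of ClpXP, at 0.43 ± 0.07 (SE). Its ATPase partner Clpx was lower, at -0.24 ± 0.06, as was the inner-membrane protease gene Afg3l2, at -0.22 ± 0.05 (SE). With chromosome medians removed, 3 of the proteases were called higher and none lower, Clpx turned to 0.12, Afg3l2 was at -0.013 and Clpp was still called higher, at 0.27.

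Of 6 tested regulators linked to this response, 4 were called higher, with a median log2 fold change of 0.77. Atf5 rose from 47.8 ± 2.62 to 105.3 ± 5.88 CPM (SD, n = 3), which is 1.14 ± 0.06 in log2 fold change (SE; edgeR adjusted p 1.9e-08). Hsf1, which encodes the master heat shock factor, rose by 0.55 ± 0.05 (SE), but the median of its chromosome, 15, was 0.59, and its call ended once chromosome medians were removed, at -0.043 (edgeR adjusted p 0.479). Atf4 (0.99 ± 0.05), on the same chromosome, and Ddit3 (1.97 ± 0.07) were called higher too, and with chromosome medians removed Atf4 was still called, at 0.40 (edgeR adjusted p 2.9e-05). Cebpb was at 0.41 ± 0.20 (edgeR adjusted p 0.113, DESeq2 adjusted p 0.0140), and Eif2ak1, which encodes the kinase HRI, was at -0.00069 ± 0.042 (SE).

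**Figure D5:**
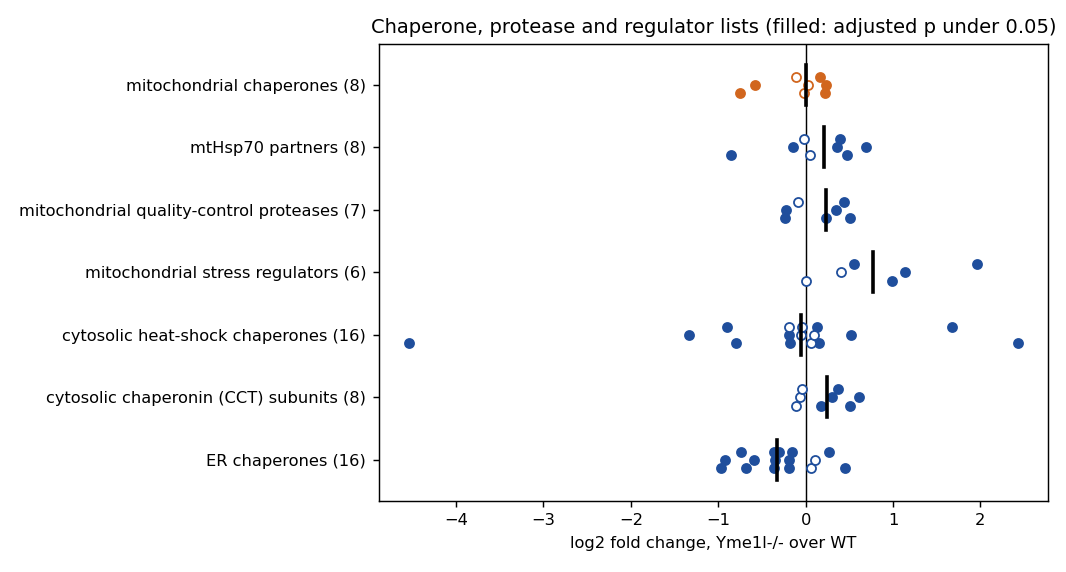
Log2 fold change of every tested gene in each list (points, filled where called) with the list median (black bar) and the number tested in brackets. The mitochondrial chaperones (orange) lie between -0.75 and 0.24 around a median of 0.0034, with the regulators centred at 0.77 and the chaperones of the endoplasmic reticulum at -0.33.

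Chaperones outside mitochondria were compared for reference. The cytosolic heat-shock list went both ways, with 5 of 16 higher and 6 lower and a median of -0.05. Its small heat shock protein genes Hspb1 (2.43 ± 0.09) and Hspb8 (1.67 ± 0.07, log2 fold change ± SE) rose, whereas the stress-inducible HSP70 genes fell, Hspa1b at -1.33 ± 0.16 (SE) and its near-identical copy Hspa1a from 33 to 54 fragments per WT library to 1 to 4. The counts of these copies can be exchanged. Of 8 subunits of the cytosolic chaperonin CCT, the counterpart of HSP60, 5 were higher and 0 were lower (median 0.24). Cct5 and Cct7 were at 0.61 ± 0.06 and 0.51 ± 0.05 (SE), on chromosomes with medians of 0.59 and 0.34. With chromosome medians removed, 1 of the CCT subunits was called higher, Cct7 at 0.17, and Cct5 was at 0.019.

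In the endoplasmic reticulum, 12 of 16 chaperone loci were lower and 2 were higher, with a median of -0.33. Pdia6, a disulfide isomerase, and Manf, counted in a locus merged with Rbm15b, were at -0.97 ± 0.04 and -0.92 ± 0.05 (SE), and still called at -0.53 and -0.56 without the chromosome medians. Creld2 and Canx rose by 0.45 ± 0.06 and 0.27 ± 0.05 (SE), but with chromosome medians removed they turned to -0.15 and -0.089, and no member of this list was called higher.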

How the data were processed

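RNA of 3 WT and 3 Yme1l-/- MEF cultures was sequenced by the authors from stranded poly(A) libraries as 100-base read pairs. Reads were mapped to mm10 (GRCm38) with HISAT2 2.0.4, transcripts were assembled with StringTie 1.3.3 and Cuffdiff 2.2.1 was run, per the study's methods and the submitters' processing notes. The deposited count table holds raw fragment counts per locus, and 635 loci merge several genes. The deposited FPKM values are 1 pooled value per genotype. The authors' own fold changes, p-values and q-values were not used. How fragments mapping to several places were counted is not given in the sources used here.

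From these counts, edgeR 4.0.16 under R 4.3.3 gave the main test (a filterByExpr minimum count of 10, TMM factors, robust glmQLFit and a two-sided glmQLFTest with no covariates), with Benjamini-Hochberg adjustment over the 13867 loci tested and calls at an adjusted p under 0.05. The procedure was tested on simulated counts in which 200 loci were changed, far fewer than were called in these data. Its errors under so broad a change were not tested. Intervals are pointwise at 95%. Ratios within libraries were compared with exact permutation tests over samples. Alternatives were RLE and upper-quartile scaling, DESeq2 1.42.0, 2 other filters, the replicate number as a block, omission of each culture, removal of chromosome medians (45 tested loci without a single position were not shifted) and thinning to the smallest library. The summed pseudogene, the omission of the merged locus and the 1 Mb medians were added after seeing the data.

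The members and lists were chosen with earlier results of these data known. Named genes were the members, Yme1l1, all regulators and, from each other list, the 2 highest and 2 lowest called fold changes, plus the 3 loci most like Hspd1. Thy1 was named outside this rule. Spg7 and Dele1 are not analysed here. Replicates were more different than counting alone would make them (ratio of chi-square to its degrees of freedom 8.45 or more), and the series' design text calls them independent cultures, so each counts as 1 sample. CPM values divide each count by its library's TMM-adjusted total. Gene positions and exonic lengths are from GENCODE and promoter windows from RefSeq, both on GRCm38, the build of the files.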

Additional observations from a re-analysis of the deposited data

How the results depend on the processing

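Over 14 alternative settings, the directions and calls of Trap1, the Dnaja3,Vasn locus, Grpel2, Clpb and Yme1l1 were kept, and Grpel2 ranged from -0.80 to -0.54. Upper-quartile scaling put Hspd1 at 0.043, the member median at 0.063 beside 0.055 for all loci, and the lower calls among mtHSP70 partners at 1. With chromosome medians removed, Hspd1 was at 0.14, Hspe1 at 0.042, Hspa9 at 0.23 and the member median at 0.14, beside -0.0003 for all loci. The members called higher were then 5, with 62.8% of all loci called and 49.5% of those calls higher, the regulators called higher 3 (Hsf1 lost its call), the mtHSP70 partners called lower 1, the proteases called lower 0, and the CCT subunits, reticulum chaperones and fibroblast markers called higher 1, 0 and 0. When each replicate was omitted in turn, Hspe1 ranged from -0.17 to -0.069, Grpel1 from 0.13 to 0.19, CCT lower calls from 0 to 1, haematopoietic higher calls from 1 to 2 and endothelial higher calls from 0 to 1. With every locus of at least 1 count kept, haematopoietic and endothelial higher calls were 3 and 2, since more loci were tested. With at least 10 counts in every sample, epithelial lower calls were 0, since those loci were no longer tested. Without the merged locus, members called lower were 1. The cause of the other changes was not tested.

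The replicate numbers did not pair the samples, as deviations of same-numbered cultures correlated at 0.14, -0.094 and 0.048, and 3 of 6 samples correlated best with their own number. With the replicate block 9794 loci were called in place of 9387. In that block, Hspe1 was called lower at -0.11 and CCT lower calls were 1. Regulators called higher were 5 in place of 4, and cytosolic heat-shock genes called lower 7 in place of 6. Apart from Hspe1, the member calls did not change.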
